A study of Mus musculus with 4 samples.

Results

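The enzymes of mucin-type glycosylation were followed across the cells and regions of a single-cell RNA data set of mouse intestinal cells labelled as goblet cells. The set holds 52 genes, named by symbol, of the 28694 genes in the count tables: 9 that initiate O-glycans, 6 that build cores, 7 that extend chains, 8 that cap with fucose, GalNAc or GlcNAc, 9 that cap with sialic acid, 4 that sulfate, 7 that supply activated sugars and 2 of the Nxpe family. They were chosen by function, but with earlier results of these data known. All cells came from RedMUC298trTg mice aged 6-8 weeks. The strain carries an mCherry-tagged mucin transgene used to find goblet cells by their fluorescence, and every library shares it. The compared groups were the distal colon (DC) and the small intestine's 8th section (Si8), with 2 libraries each. The 4 libraries held 26075303 to 66880457 UMIs. Live cells were sorted on presence or absence of mCherry, but the sources used here do not say whether both sorted fractions were sequenced. They do not give the number of mice behind a library either, so p-values measure only the spread between these 4 libraries, which may be technical.

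Mucin O-glycans start when a polypeptide GalNAc transferase places GalNAc on serine or threonine of the mucin backbone in the Golgi. Core enzymes then add galactose or GlcNAc, extension enzymes lengthen the branches, and fucose, sialic acid, GalNAc or sulfate close the chain. In the intestine these chains coat Muc2, the gel-forming mucin of goblet cells, give mucus its water binding and protease resistance, and offer binding sites and food to bacteria. Mucins of mouse and human are known to differ along the intestine in how far they carry sialic acid, fucose and sulfate.

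After filtering, 10243 of 10827 barcodes were kept, with 1 to 16 barcodes shared between any pair of libraries. Clustering left out the members and the other listed genes, 357 in all. Clusters 4, 5 and 6 carried goblet markers in both regions and are called goblet-like. Cluster 2 carried absorptive markers in both and is called absorptive-like. This choice of clusters was made after seeing the data. In DC alone, clusters 1 and 8 were also named goblet and cluster 7 absorptive, and they were left out. With clusters 1 and 8, the DC cells named goblet would number 1124 and 2359, so the goblet-like cells are only a part of them. The goblet-like cells numbered 691 and 1448 in DC and 544 and 819 in Si8, with 8240629 and 14821808 UMIs in DC and 8816795 and 15704896 in Si8. The absorptive-like cells numbered 188 and 916 in DC and 111 and 292 in Si8. Their label is only partly borne out. In them the 30 goblet markers summed to 36514 and 31198 CPM in DC and to 126460 and 84714 in Si8. These sums exceeded those of colonic absorptive markers, 11260 and 11049 in DC and 6517 and 5172 in Si8. They also exceeded those of small intestinal absorptive markers, 652 and 669 in DC and 22163 and 28688 in Si8. The absorptive-like cells held Muc2 at 46.5% and 36.0% of the goblet-like level in DC and at 53.5% and 35.2% in Si8. The part of free RNA in this was not tested. In goblet-like cells the 16 Paneth markers summed to 2219 and 2179 CPM in DC, with 7 of 16 at 0 in each library, and to 4918 and 8160 in Si8, with none at 0. Enteroendocrine markers summed to 11.7 and 23.0 in DC and to 949 and 672 in Si8, small intestinal absorptive markers to 784 and 694 in DC and to 2690.2 and 3073 in Si8, and colonic absorptive markers to 4316 and 4805 in DC and to 7627 and 7233 in Si8. Stem markers ran the other way, at 809 and 573 in DC and 215 and 202 in Si8, as did tuft markers, at 319.5 and 339.5 in DC and 138 and 137 in Si8, and cycling markers, at 219 and 262 in DC and 83.8 and 153 in Si8. Immune and stromal markers stayed at or under 5.44 in every library. The part of these markers in the results was not tested. Levels are given in CPM, that is UMIs of a gene scaled to 1000000 UMIs of its class in its library, a 3' tag count that is not divided by gene length.

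Promoters are shown for members whose levels differed between the regions in opposite directions. RefSeq windows (GRCm38.p6, the build the submitters call mm10) from 250 bases before to 50 after the transcription start were matched for 39 of the 52 members, 57 windows in all. Of members with 1 window, at least 20 CPM and a difference that passed the edgeR test given with the regional comparison, the 2 with the largest difference in each direction are printed, St6galnac6 (chr2:32599459-32599758, plus strand) and B3gnt5 (chr16:19759984-19760283, plus strand), which were higher in DC, and St3gal4 (chr9:35116815-35117114, minus strand) and Chst4 (chr8:110039285-110039584, minus strand), which were lower. Each window straddles a transcription start of RefSeq, so its last 50 bases lie in the transcribed part, and is written along the gene. Capitals mark, on either strand, TTTAT (a core of CDX sites), CAAAG (a half-site of HNF4) and GGGCGG (the GC box), and no match of one motif overlapped another.
St6galnac6: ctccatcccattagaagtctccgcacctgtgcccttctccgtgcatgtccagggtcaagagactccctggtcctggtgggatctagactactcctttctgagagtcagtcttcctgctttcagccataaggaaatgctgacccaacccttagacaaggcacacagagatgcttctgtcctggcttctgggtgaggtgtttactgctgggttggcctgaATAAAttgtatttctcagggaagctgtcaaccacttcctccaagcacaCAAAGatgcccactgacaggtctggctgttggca
B3gnt5: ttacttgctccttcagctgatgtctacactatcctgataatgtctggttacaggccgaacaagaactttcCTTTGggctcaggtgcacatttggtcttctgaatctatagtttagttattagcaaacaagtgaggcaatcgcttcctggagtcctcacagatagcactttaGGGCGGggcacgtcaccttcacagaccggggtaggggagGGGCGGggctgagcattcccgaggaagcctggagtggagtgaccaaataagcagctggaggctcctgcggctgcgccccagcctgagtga
St3gal4: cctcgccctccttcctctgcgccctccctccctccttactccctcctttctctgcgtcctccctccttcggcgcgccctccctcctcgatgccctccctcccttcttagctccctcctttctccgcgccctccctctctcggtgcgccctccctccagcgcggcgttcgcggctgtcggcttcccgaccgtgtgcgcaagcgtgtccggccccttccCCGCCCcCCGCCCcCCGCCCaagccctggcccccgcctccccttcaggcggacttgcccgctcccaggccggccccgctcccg
Chst4: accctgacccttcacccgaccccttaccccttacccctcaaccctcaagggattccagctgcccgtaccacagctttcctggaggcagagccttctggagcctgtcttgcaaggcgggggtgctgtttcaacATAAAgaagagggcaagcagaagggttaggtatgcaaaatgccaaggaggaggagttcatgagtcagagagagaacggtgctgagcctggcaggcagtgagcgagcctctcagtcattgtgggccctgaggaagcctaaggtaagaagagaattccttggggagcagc
The St6galnac6 window held 1 TTTAT and 1 CAAAG match, that of B3gnt5 held 1 CAAAG match and 2 GC boxes, that of St3gal4 held 3 GC boxes, and that of Chst4 held 1 TTTAT match. TTTAT occurred in 40.0% of the 32851 windows of the table and in 22 of the 57 member windows (38.6%). CAAAG occurred in 53.9% of all windows and in 30 member windows (52.6%), and GGGCGG in 35.7% of all windows and in 26 member windows (45.6%). A match is a description of the letters and not of a bound factor. By GENCODE M21 models of the same build, St6galnac6 itself spans chr2:32599709-32620806 (plus strand), St6gal1 spans chr16:23224740-23360350 (plus strand) and B4galnt1 spans chr10:127165225-127172330 (plus strand). The member St6galnac4 spans chr2:32587095-32599698 (plus strand), so the St6galnac6 window begins inside it. In these models St3gal4 spans chr9:35046576-35119268 and Chst4 spans chr8:110029153-110039740 (both minus strand). Their printed windows therefore lie wholly inside the gene, downstream of the start in these models.

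The region comparison asked how the enzyme set of colonic goblet-like cells differs from that of small intestinal ones. In DC the sialyltransferases St6galnac6, St6gal1 and St3gal6, the extension enzymes B3galt5, B3gnt5 and B3gnt7 and the sialic acid maker Gne were higher by log2 fold changes of 2.04 to 5.56. Most initiating enzymes, the core 2 enzyme Gcnt3, the sialyltransferase St3gal4 and the GalNAc-transferring caps B4galnt1 and B4galnt2 were lower. The edgeR quasi-likelihood test with Benjamini-Hochberg adjustment over 11288 genes (threshold 0.05, log2 fold changes as DC over Si8) tested 45 members and called 36, 17 higher and 19 lower in DC. Of all genes tested, 46.1% were called, 22.7% higher and 23.4% lower. The median absolute log2 fold change was 1.50 over the tested members, also with the 2 genes that had no UMI in one region at their bound, and 0.495 over all tested genes. Of the 36 called members, 34 had both DC libraries on one side of both Si8 libraries in CPM; Galnt5 and Fut8 overlapped. Of all tested genes, 86.3% did not overlap in this way (70.9% higher and 15.4% lower in DC), so a lack of overlap in CPM sets no member apart. Sums over cells do not tell fewer cells with a transcript from less transcript per cell. The share of cells with each transcript is not given here.

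The scale bears on every fold change here. The 30 goblet markers took 97786 and 101550 CPM in DC goblet-like cells, against 314040 and 312840 in Si8, which lowers the share left for other genes in Si8. TMM factors of 1.22 and 1.21 in DC, against 0.832 and 0.814 in Si8, adjust for this, so that a gene with equal CPM in both regions has a negative fold change. Over all genes the median log2 fold change, 0.05 with these factors, became 0.61 when library totals alone were used, and 49.3% of 5205 calls against 84.3% of 7640 calls were higher in DC. With library totals alone 26 members were higher and 16 lower. Summed over all 52 members, levels were 5449 and 5309 CPM in DC, against 3715 and 3436 in Si8, but 4466 and 4388 in DC, against 4466 and 4221 in Si8, once divided by the TMM factors.

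**Figure D1:**
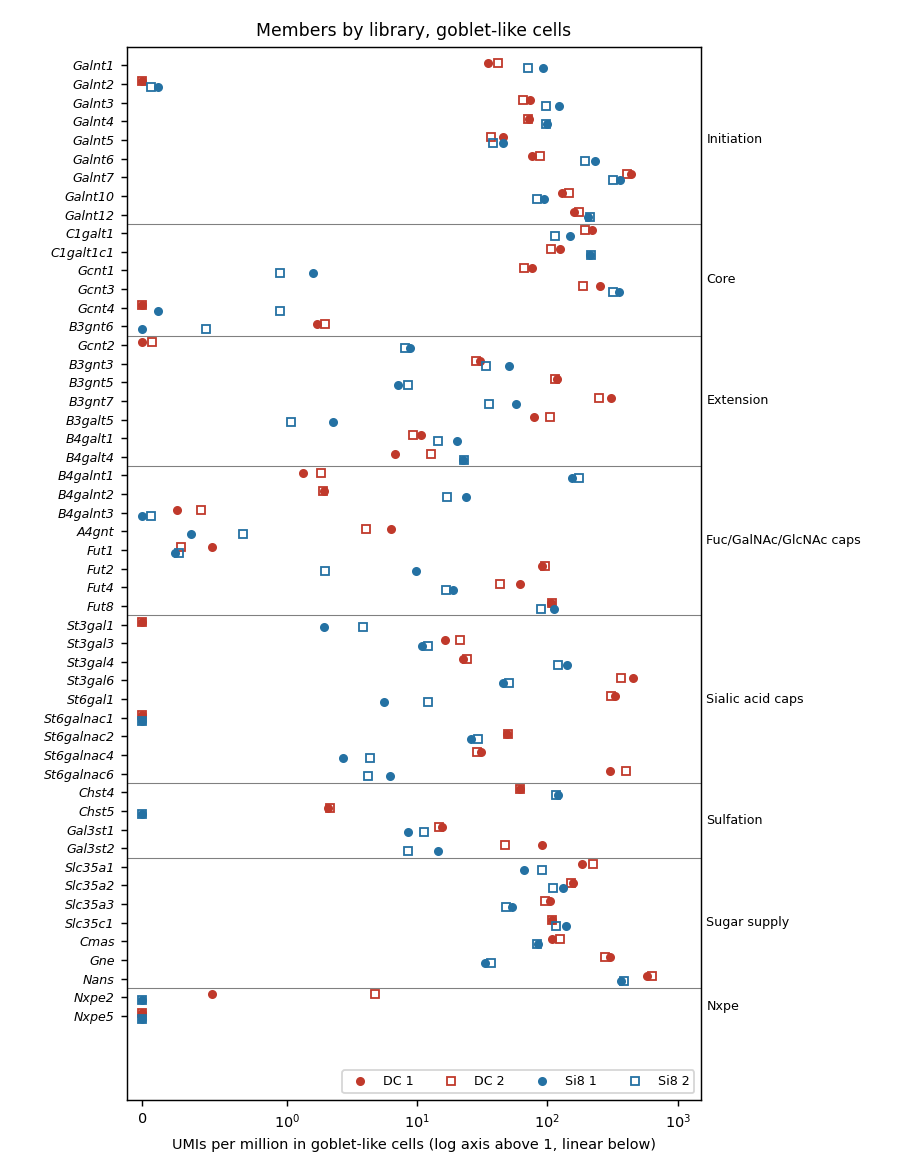
CPM of each of the 52 members in goblet-like cells, 1 point per library (red DC, blue Si8; filled replicate 1, open replicate 2), on an axis that is logarithmic above 1 and linear below, ordered by step. St6galnac6, St6gal1, B3galt5 and Gcnt1 lie far to the right in both DC libraries, and B4galnt1, Gcnt2 and St3gal1 far to the left; St6galnac1 and Nxpe5 are at 0 in all 4.

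Among the 9 polypeptide GalNAc transferases, which place the first sugar, 8 were tested, 6 were lower in DC and none was higher (also 0 by DESeq2 and 0 by edgeR at an unadjusted p under 0.05); with library totals alone 5 were lower and 2 higher. Galnt6 had 76.6 and 88.1 CPM in DC, against 233 and 196 in Si8. Both DC libraries lay below both Si8 libraries (log2 fold change -1.94 ± 0.14 (SE), adjusted p = 2.1e-05). Galnt12 had 161 and 176 CPM in DC, against 203 and 211 in Si8, again lower in both DC libraries (log2 fold change -0.86 ± 0.12 (SE), adjusted p = 0.000691). Galnt7, which prefers peptides that already carry GalNAc, had 436 and 405 CPM in DC, against 358 and 318 in Si8. This was not called (log2 fold change -0.25 ± 0.12 (SE), adjusted p = 0.132), and nor was Galnt10, another follow-up enzyme, at 130.2 and 145 in DC, against 93.6 and 83.2 in Si8 (log2 fold change 0.08 ± 0.13 (SE), adjusted p = 0.616). Galnt1, a broadly expressed initiator, was also lower (log2 fold change -1.63 ± 0.16 (SE), adjusted p = 0.000111), and the smallest of the 6 calls, Galnt5 (log2 fold change -0.58 ± 0.14 (SE), adjusted p = 0.0103), was lost without DC 2 (adjusted p = 0.0825) and with library totals alone (adjusted p = 0.897). Counts of Galnt4 may be shared with Poc1b, with which it overlaps over 420 exonic bases of the same strand, and Galnt2, which overlaps Gm20388, had 0 UMIs in DC and 2 in Si8.

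Core enzymes moved in both directions, 2 of 5 tested higher and 2 lower. C1galt1 makes core 1 by adding galactose and depends on the chaperone C1galt1c1 (Cosmc). C1galt1 had 221 and 193 CPM in DC, against 149 and 114 in Si8, which was not called once scaled (log2 fold change 0.09 ± 0.15 (SE), adjusted p = 0.645). Its chaperone had 125 and 106 in DC, against 212 and 216 in Si8, lower in both DC libraries (log2 fold change -1.45 ± 0.13 (SE), adjusted p = 5.32e-05). The 2 main branching enzymes went opposite ways. Gcnt3, which makes core 2 and core 4 of mucins, had 253 and 187 CPM in DC, against 355 and 317 in Si8 and was lower in DC (log2 fold change -1.18 ± 0.16 (SE), adjusted p = 0.000502). Gcnt1, the other core 2 enzyme, had 75.6 and 66.4 CPM in DC, against 1.59 and 0.955 in Si8, without overlap (log2 fold change 5.32 ± 0.20 (SE), adjusted p = 1.13e-06). B3gnt6, the core 3 synthase, rested on 43 UMIs in DC and 7 in Si8, that is 1.7 and 1.96 in DC, against 0 and 0.446 in Si8, where Si8 2 held all 7 (log2 fold change 2.13 ± 0.70 (SE), adjusted p = 0.0368; 1.44 without Si8 1), and its call was lost without DC 1, DC 2 or Si8 1 (adjusted p = 0.102, 0.173 and 0.0933) and with DESeq2 (adjusted p = 0.104). Gcnt4, another enzyme of core 2, had 0 UMIs in DC and 16 in Si8, 15 of them in Si8 2, which puts DC at least 5.02-fold lower against a floor of 3 UMIs over the region, and was too low to test.

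All 7 extension enzymes were called, 3 higher and 4 lower in DC. B3gnt7, which adds GlcNAc to growing lactosamine chains, had 308 and 249 CPM in DC, against 57.2 and 35.5 in Si8 (log2 fold change 2.04 ± 0.21 (SE), adjusted p = 0.000136). B3galt5, which makes type 1 chains by adding galactose to GlcNAc, had 78.8 and 104 CPM in DC, against 2.27 and 1.08 in Si8 (log2 fold change 5.33 ± 0.28 (SE), adjusted p = 4.09e-06). B3gnt5, known for starting lacto-series glycolipids, had 118 and 115 CPM in DC, against 7.15 and 8.53 in Si8 (log2 fold change 3.31 ± 0.14 (SE), adjusted p = 1.71e-06). For these 3 genes both DC libraries were at least 4 times as high as either Si8 library. Gcnt2, the I-branching enzyme, ran the other way with 0 and 0.0675 in DC, against 8.85 and 8.15 in Si8. It rested on 1 UMI in DC and 206 in Si8 (adjusted p = 8.95e-06), a ratio of 194 for Si8 over DC (exact binomial 95% interval 34.4 to 7690, counting error only). B4galt4 (log2 fold change -1.72 ± 0.25 (SE), adjusted p = 0.000752; -2.32 without DC 2) and B4galt1 (log2 fold change -1.35 ± 0.19 (SE), adjusted p = 0.000709), galactosyltransferases of lactosamine chains, were also lower in DC, as was B3gnt3, which extends core 1. Summed over the 7 genes, levels were 553 and 519 CPM in DC, against 169 and 124.5 in Si8.

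Of the 8 enzymes that cap with fucose, GalNAc or GlcNAc, 6 were tested and all were called, 3 in each direction. Fut2, which adds the fucose of the H antigen, had 90.3 and 96.1 CPM in DC, against 9.75 and 1.97 in Si8 (log2 fold change 3.60 ± 0.47 (SE), adjusted p = 0.000445). The Si8 libraries lay far apart, and the log2 fold change was 4.96 without Si8 1 and 2.72 without Si8 2. Fut4, a fucosyltransferase of Lewis-type antigens, was higher as well (log2 fold change 0.99 ± 0.17 (SE), adjusted p = 0.00212). A4gnt, known from the GlcNAc caps of gastric gland mucin, rested on 112 UMIs in DC and 14 in Si8, 6.31 and 4.05 in DC, against 0.34 and 0.7 in Si8 (log2 fold change 2.59 ± 0.44 (SE), adjusted p = 0.00183; 3.32 without Si8 2). B4galnt1, which transfers GalNAc to gangliosides, had 1.33 and 1.82 CPM in DC, against 154 and 176 in Si8 (log2 fold change -7.21 ± 0.20 (SE), adjusted p = 2.95e-07). B4galnt2, which makes the Sda antigen, had 1.94 and 1.89 in DC, against 23.6 and 17 in Si8 (log2 fold change -3.94 ± 0.24 (SE), adjusted p = 8e-06). Both GalNAc transferases were at most 2 CPM in DC and at least 17 in Si8. Fut8, which puts core fucose on N-glycans, had 107 and 109 CPM in DC, against 112 and 89.5 in Si8; its call (log2 fold change -0.45 ± 0.14 (SE), adjusted p = 0.0242) was lost without DC 1, DC 2 or Si8 1 (adjusted p = 0.103, 0.0795 and 0.102) and its sign turned with library totals alone (log2 fold change 0.11). The other 2 genes of this group were too low to test: Fut1, also an H-antigen enzyme, had 8 UMIs in DC and 6 in Si8, and B4galnt3, which makes LacdiNAc ends, had 8 in DC and 1 in Si8.

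Sialyltransferases showed the largest difference in summed level of any step, 1202 and 1200 CPM in DC, against 240.3 and 235.8 in Si8, with 4 of 8 tested genes higher and 2 lower. St6galnac6, which attaches sialic acid to GalNAc or GlcNAc of chains that already hold one, had 303 and 403 CPM in DC, against 6.24 and 4.2 in Si8 (log2 fold change 5.56 ± 0.24 (SE), adjusted p = 1.71e-06). St6gal1, which sialylates lactosamine, mainly on N-glycans, had 330.3 and 305 CPM in DC, against 5.56 and 12.1 in Si8 (log2 fold change 4.54 ± 0.29 (SE), adjusted p = 1.16e-05; 5.30 without Si8 2). St3gal6, which sialylates terminal galactose, had 450.0 and 367 CPM in DC, against 45.7 and 50.3 in Si8 (log2 fold change 2.52 ± 0.15 (SE), adjusted p = 7.11e-06). In each, the lower DC library was more than 7 times as high as the higher Si8 library. St6galnac4 followed at a lower level, 31.1 and 28.9 in DC, against 2.72 and 4.33 in Si8 (log2 fold change 2.46 ± 0.21 (SE), adjusted p = 4.75e-05). St3gal4, another sialyltransferase of terminal galactose, was lower in DC at 22.6 and 24.4 CPM in DC, against 141 and 119.8 in Si8 (log2 fold change -3.03 ± 0.14 (SE), adjusted p = 2.38e-06). St3gal1, which sialylates core 1, had 0 and 0 CPM in DC, against 1.93 and 3.82 in Si8, that is 0 UMIs in DC and 77 in Si8, which puts DC at least 24.1-fold lower (adjusted p = 0.000468). St3gal3 (log2 fold change 0.15 ± 0.18 (SE), adjusted p = 0.517) and St6galnac2 (log2 fold change 0.28 ± 0.12 (SE), adjusted p = 0.0926) were not called. St6galnac1, known as the sialyl-Tn synthase, had no UMI in goblet-like cells of any library, where 3 UMIs would have been 0.130 CPM in DC and 0.122 in Si8, and 3 UMIs over all kept cells.

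Of the 4 sulfotransferases, Gal3st2 and Chst5 were higher in DC and Chst4 was lower. Chst4, which sulfates GlcNAc, had 61.2 and 61.8 CPM in DC, against 120.3 and 116 in Si8 (log2 fold change -1.50 ± 0.12 (SE), adjusted p = 2.77e-05). Gal3st2, which sulfates galactose, had 91.1 and 47.2 CPM in DC, against 14.5 and 8.6 in Si8 (log2 fold change 2.05 ± 0.33 (SE), adjusted p = 0.00131). Its DC libraries differed from each other, yet both lay above Si8; close copies of this gene make the source of its UMIs uncertain. Chst5, a GlcNAc sulfotransferase like Chst4, had 2.06 and 2.16 CPM in DC, against 0 and 0 in Si8, that is 49 UMIs in DC and none in Si8, at least 17.4-fold higher in DC (adjusted p = 0.000997). Gal3st1, which sulfates glycolipids, was not called (log2 fold change 0.02 ± 0.19 (SE), adjusted p = 0.93).

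Sugar supply changed at single points, with 3 of 7 genes higher and 1 lower; with library totals alone 6 were higher and none lower. Gne, whose product starts sialic acid synthesis, had 302 and 276 CPM in DC, against 33.2 and 36.9 in Si8 (log2 fold change 2.48 ± 0.13 (SE), adjusted p = 4.57e-06). Slc35a1, the Golgi carrier of CMP-sialic acid, had 185 and 224 CPM in DC, against 66.6 and 90.8 in Si8 (log2 fold change 0.81 ± 0.18 (SE), adjusted p = 0.0064). The Slc35a1 call was lost in cluster 5 alone (log2 fold change 0.46, edgeR adjusted p = 0.127). In CPM, 70.9% of all tested genes lay higher in both DC libraries, as did Gne, Slc35a1, Nans and Cmas. Gne and Slc35a1 act early and late in bringing sialic acid to the Golgi. Between them, 2 members were not called: Nans, which makes the sialic acid phosphate, had 584 and 637 CPM in DC, against 367 and 388 in Si8 (log2 fold change 0.13 ± 0.12 (SE), adjusted p = 0.419), and Cmas, which activates sialic acid, had 109 and 125 in DC, against 85.4 and 83.3 in Si8 (log2 fold change -0.09 ± 0.13 (SE), adjusted p = 0.602). Slc35c1, the GDP-fucose carrier, had 109 and 109 CPM in DC, against 139.5 and 117 in Si8 and was lower in DC (log2 fold change -0.79 ± 0.13 (SE), adjusted p = 0.00127), a call lost with library totals alone (adjusted p = 0.135). Slc35a2, the UDP-galactose carrier, had 156 and 152 in DC, against 133 and 110.5 in Si8 and was not called (log2 fold change -0.22 ± 0.13 (SE), adjusted p = 0.197). Slc35a3, which carries UDP-GlcNAc, was slightly higher (log2 fold change 0.42 ± 0.12 (SE), adjusted p = 0.0188), a call lost without DC 1 or Si8 2 (adjusted p = 0.1 and 0.0774); it overlaps Gm43191 over 275 exonic bases, so its counts are uncertain. Nxpe2, of a family of which human NXPE1 has been linked to sialic acid acetylation, had 74 UMIs in DC goblet-like cells, 70 of them in DC 2, and none in Si8, at least 26.2-fold higher in DC, and was too low to test. Nxpe5 had none in either. When all kept cells were summed in place of goblet-like ones, calls were lost for Fut2 (adjusted p = 0.0879), Gal3st2 (adjusted p = 0.179) and A4gnt (adjusted p = 0.343), among others.

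**Figure D2:**
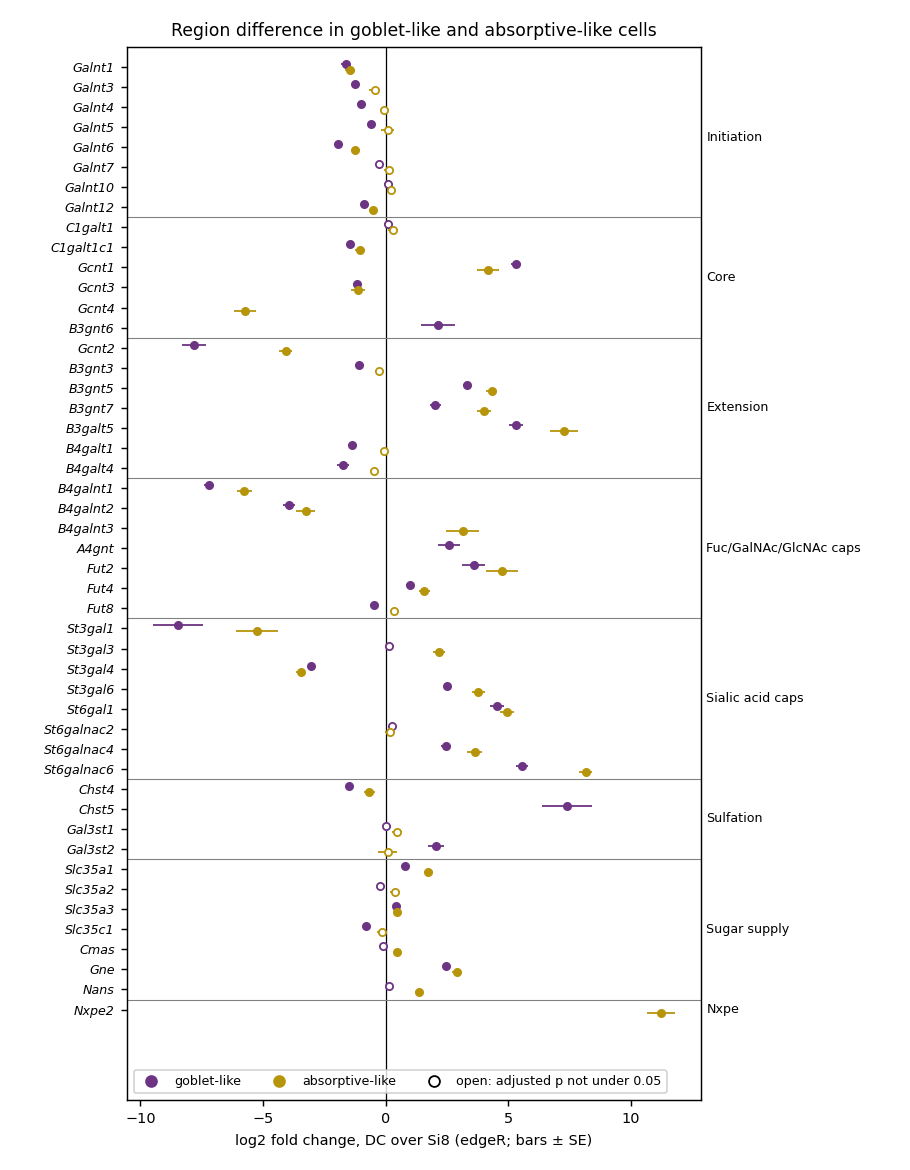
Log2 fold change of DC over Si8 (edgeR, bars ± SE) for each member tested in goblet-like cells (purple) or absorptive-like cells (ochre), ordered by step; filled points passed an adjusted p of 0.05 and open points did not. The initiating enzymes sit left of 0 or near it in both classes, while St6galnac6 reaches 5.56 in goblet-like and 8.17 in absorptive-like cells.

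Absorptive-like cells of the same libraries were compared by region to ask whether the enzyme pattern belongs to goblet cells alone. There 30 of 45 tested members were called, 18 higher and 12 lower in DC, where 33.8% of 10544 genes were called, 16.7% higher and 17.2% lower. With library totals alone 23 were higher and 10 lower, and the median over all genes moved to 0.25 against 0.02 with TMM, with 68.4% of calls higher in place of 49.2%. St6galnac6 had 403 and 484 CPM in DC, against 1.47 and 1.25 in Si8 (log2 fold change 8.17 ± 0.27 (SE), adjusted p = 3.29e-08), so that both classes of the colon carried it and neither class of the small intestine did beyond 6.24. St3gal4 had 76.3 and 79 CPM in DC, against 777 and 672 in Si8 (log2 fold change -3.46 ± 0.19 (SE), adjusted p = 3.52e-07), lower in DC as in goblet-like cells. Nxpe2 had 48 and 55.9 CPM in DC, against 0 and 0 in Si8, 818 UMIs against none, at least 168-fold higher in DC (adjusted p = 6.11e-07). Gcnt4 had 1.12 and 0.243 CPM in DC, against 20.1 and 19.4 in Si8 (log2 fold change -5.74 ± 0.44 (SE), adjusted p = 4.76e-06; -6.45 without DC 1 and -4.33 without DC 2). Initiating enzymes were called lower for 3 of 8, and of these Galnt12 (log2 fold change -0.52) was lost with DESeq2 (adjusted p = 0.104). With library totals alone its edgeR adjusted p was 0.202, and without Si8 1 its log2 fold change was -0.345. The summed sialyltransferases came to 955 and 957 CPM in DC, against 832 and 717.5 in Si8. Divided by the TMM factors they came to 885 and 878 in DC, against 921 and 766.5 in Si8, so the regions overlapped.

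The difference between the regional differences was tested directly, as the region change in goblet-like cells minus that in absorptive-like cells. Of 48 members tested, 28 passed, 3 positive (1 without DC 2) and 25 negative, where 21.4% of 11557 genes passed, 8.61% positive and 12.8% negative. The negative sign means that a member was less raised, or more lowered, in DC in goblet-like cells than in absorptive-like cells. With library totals alone 4 were positive and 17 negative, while 80.1% of all calls were positive in place of 40.3%. B3gnt7 had log2 fold changes of 2.04 ± 0.21 (SE) in goblet-like and 4.02 ± 0.28 (SE) in absorptive-like cells (interaction -1.95 ± 0.14 (SE), adjusted p = 3.53e-07). St6galnac6 stood at 5.56 ± 0.24 (SE) and 8.17 ± 0.27 (SE) in the same order (interaction -2.52 ± 0.31 (SE), adjusted p = 5.05e-05). St3gal3, a sialyltransferase of lactosamine ends, differed by region in absorptive-like cells, 22 and 28.1 CPM in DC, against 5.39 and 4.58 in Si8 (log2 fold change 2.18 ± 0.26 (SE), adjusted p = 9.03e-05), and was not called in goblet-like cells (interaction -2.06 ± 0.24 (SE), adjusted p = 3.71e-05). Gcnt2 was lower in DC in both classes and more so in goblet-like cells (interaction -3.71 ± 0.82 (SE), adjusted p = 0.00479; -3.09 without DC 1 and -5.49 without DC 2).

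On the positive side Gal3st2 stood out: against its higher level in DC goblet-like cells, absorptive-like cells had 30.9 and 14.2 CPM in DC, against 22.5 and 13 in Si8, with overlapping libraries (log2 fold change 0.08 ± 0.38 (SE), adjusted p = 0.892; interaction 1.93 ± 0.19 (SE), adjusted p = 6.7e-06). B3gnt6 (interaction 3.71 ± 1.06 (SE), adjusted p = 0.0223; 3.09 without Si8 1 and 8.80 without Si8 2) rested on 7 UMIs in DC and 12 in Si8 absorptive-like cells and was lost without DC 2 (adjusted p = 0.145). St3gal4 (0.42 ± 0.12 (SE), adjusted p = 0.0246) was lost without DC 1, DC 2 or Si8 1 (adjusted p = 0.077, 0.225 and 0.0659). The negative interaction of B4galnt1 (-1.38 ± 0.34 (SE), adjusted p = 0.0093) turned to 0.26 without DC 2 (adjusted p = 0.949). DESeq2 ended the calls of Gcnt2 and St3gal4 (adjusted p = 0.055 and 0.129). With each cell thinned to 2000 UMIs 0 members were positive and 5 negative by edgeR (2 and 15 at an unadjusted p under 0.05), and the calls of Gal3st2 (adjusted p = 0.0726), St3gal3 (0.276) and St6galnac6 (0.321) were among those lost.

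**Figure D3:**
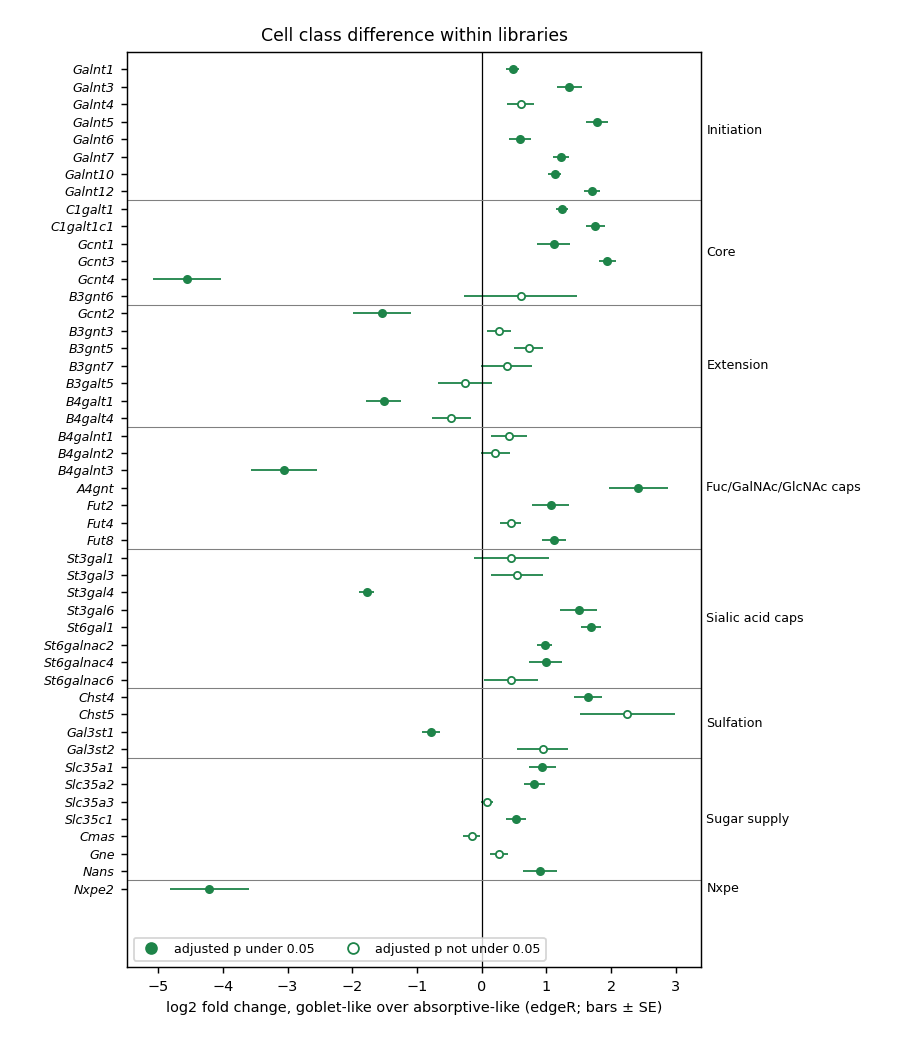
Log2 fold change of goblet-like over absorptive-like cells within libraries (edgeR with library as a block, bars ± SE) for the 48 tested members by step; filled points passed an adjusted p of 0.05. The 8 initiating enzymes all lie right of 0 and 7 of them passed, whereas none of the 7 extension enzymes was called higher by edgeR (1 at an unadjusted p under 0.05, and 1 by DESeq2).

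The next comparison asked which steps goblet-like cells carry above the absorptive-like cells of the same library. Initiation and cores were higher in goblet-like cells: 7 of 8 tested initiating enzymes and 4 of 6 core enzymes rose and only Gcnt4 among these 14 fell. Initiating enzymes called higher numbered 5 without DC 2, Si8 1 or Si8 2, 5 with library totals alone and 6 after thinning. The call of the core enzyme Gcnt1 was lost without DC 1 or DC 2 and with DESeq2 (adjusted p = 0.067). By edgeR it was also lost after thinning (adjusted p = 0.108) and with library totals alone (adjusted p = 0.056). Of all 48 tested members 23 were higher and 7 lower, where 29.9% of 11557 genes were called, 15.5% higher and 14.4% lower. The median log2 fold change was 0.60 over the members and 0.01 over all genes, and -0.31 over all genes with library totals alone, where 18 members were higher and 9 lower and 22.4% of all calls were higher in place of 51.9%. Gcnt3 had 253, 187, 355 and 317 CPM in goblet-like cells, against 86.8, 49.1, 151 and 96.1 in absorptive-like cells (DC 1, DC 2, Si8 1, Si8 2). It was higher in goblet-like cells in all 4 libraries (log2 fold change 1.94 ± 0.13 (SE), adjusted p = 0.000301). Galnt12 (log2 fold change 1.71 ± 0.12 (SE), adjusted p = 0.000367), Galnt5 (log2 fold change 1.78 ± 0.17 (SE), adjusted p = 0.000892), C1galt1c1 (log2 fold change 1.75 ± 0.15 (SE), adjusted p = 0.00054) and the low-level A4gnt (log2 fold change 2.42 ± 0.45 (SE), adjusted p = 0.00983) were the others of the 5 largest rises. Without Si8 1 the number of higher members was 14, and without DC 2 the number of lower members was 4.

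The 7 members that were lower in goblet-like cells came from 6 of the 8 steps. St3gal4 had 22.6, 24.4, 141 and 119.8 CPM in goblet-like cells, against 76.3, 79, 777 and 672 in absorptive-like cells (DC 1, DC 2, Si8 1, Si8 2). It was lower in goblet-like cells in all 4 libraries (log2 fold change -1.78 ± 0.12 (SE), adjusted p = 0.000297), and this gene accounted for most of the summed sialyltransferase level of absorptive-like cells in Si8. Gcnt4 (log2 fold change -4.55 ± 0.52 (SE), adjusted p = 0.00171; -3.90 without Si8 1), Nxpe2 (log2 fold change -4.21 ± 0.61 (SE), adjusted p = 0.0104; -3.38 without DC 1) and B4galnt3 (log2 fold change -3.06 ± 0.51 (SE), adjusted p = 0.00641), were lower as well. Gcnt2 stood at -1.54 ± 0.45 (SE) on the log2 scale (adjusted p = 0.0431), a call lost without DC 2, Si8 1 or Si8 2 (adjusted p = 0.0553, 0.117 and 0.0832). The call of Nxpe2 was lost with DESeq2 (adjusted p = 0.281). The other 2 of the 7 were B4galt1 and Gal3st1. The Muc2 held by absorptive-like cells, given above, moves with this comparison, and its part in it was not tested.

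Within goblet-like cells, the cluster with the highest summed level of 22 genes of the surface epithelium (cluster 4: 17143 and 17038 CPM in DC, 15760 and 12715 in Si8) was set against a cluster with a lower sum (cluster 5: 11905 and 11405 in DC, 9796 and 7008 in Si8). The 2 clusters differed in other genes too. For either region, the top 10 genes of cluster 5 held Cyr61, Thbs1 and Rasd1 but no listed goblet marker. Spink1 led cluster 4 in DC, with 5 goblet markers among its top 10 genes, whereas Fabp1 led it in Si8, with 2. What these other genes contribute to the comparison was not tested. Of 7 tested sialyltransferases, 4 were lower in cluster 4 and 1, St3gal4, was higher. The edgeR call of St6galnac2 was lost without DC 1, DC 2 or Si8 1 (adjusted p = 0.0786, 0.0974 and 0.0542). DESeq2 did not call it either (adjusted p = 0.0981). After thinning, the edgeR calls of St6galnac2 and St6galnac6 were lost (adjusted p = 0.101 and 0.081). Of the 7 sugar supply genes Gne and Slc35a1 were lower, and both edgeR calls were lost without Si8 1 (adjusted p = 0.0641 and 0.121). That of Slc35a1 was also lost without Si8 2 (adjusted p = 0.119). Nans (adjusted p = 0.8) and Cmas (adjusted p = 0.179) were not called. Of 43 tested members 14 were called, 6 higher and 8 lower, where 18.3% of 10351 genes were called, 10.5% higher and 7.76% lower. With library totals alone 3 were higher and 14 lower, with 21.6% of all calls higher in place of 57.6% and a median log2 fold change over all genes of -0.19 against -0.01. Without Si8 1 the counts were 3 higher and 5 lower.

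St3gal4 had 30.1, 32.4, 167 and 138 CPM in cluster 4, against 19.6, 21.1, 129 and 98.1 in cluster 5 (DC 1, DC 2, Si8 1, Si8 2). It was higher in cluster 4 in every library (log2 fold change 0.70 ± 0.08 (SE), adjusted p = 0.000137). St6galnac6 had 218, 304, 3.97 and 2.56 CPM in cluster 4, against 348, 425, 8.14 and 7.08 in cluster 5 (DC 1, DC 2, Si8 1, Si8 2). It was lower in cluster 4 in every library (log2 fold change -0.54 ± 0.10 (SE), adjusted p = 0.00384), as were St6galnac4 (log2 fold change -0.96 ± 0.17 (SE), adjusted p = 0.00252), Fut4 (log2 fold change -0.51 ± 0.10 (SE), adjusted p = 0.00421) and A4gnt (log2 fold change -2.39 ± 0.40 (SE), adjusted p = 0.00151). A4gnt had 1.5, 1.5, 0 and 0.102 CPM in cluster 4, against 8.45, 6.08, 0.939 and 2.02 in cluster 5 (DC 1, DC 2, Si8 1, Si8 2). Gne was lower as well (log2 fold change -0.57 ± 0.13 (SE), adjusted p = 0.0106). Gcnt3 (log2 fold change 0.45 ± 0.07 (SE), adjusted p = 0.00135) was higher in cluster 4. Of the other rises, Galnt1 (log2 fold change 0.65 ± 0.15 (SE), adjusted p = 0.0107) was lost without Si8 1 or Si8 2 (adjusted p = 0.0942 and 0.0589), Chst4 (log2 fold change 0.35 ± 0.10 (SE), adjusted p = 0.0247) without the same libraries (adjusted p = 0.118 and 0.128), and B3galt5 (log2 fold change 0.42 ± 0.14 (SE), adjusted p = 0.0498) without DC 1, DC 2 or Si8 1 (adjusted p = 0.455, 0.117 and 0.0828). The call of Galnt12 was lost without DC 1, DC 2 or Si8 2. Against cluster 6, which tied with cluster 5 in the ranking by surface genes, 1 member was higher and 8 were lower in cluster 4. The edgeR calls of Gcnt3 (log2 fold change 0.20, adjusted p = 0.0593) and Fut4 (log2 fold change -0.33, adjusted p = 0.0764) were lost there. Those of Galnt1, Galnt12, B3galt5, St6galnac2 and Chst4 were lost there too. Of all 9923 genes tested there, 1502 were called, and 57.8% of these calls were higher in cluster 4. That comparison was added after seeing the data.

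**Figure D4:**
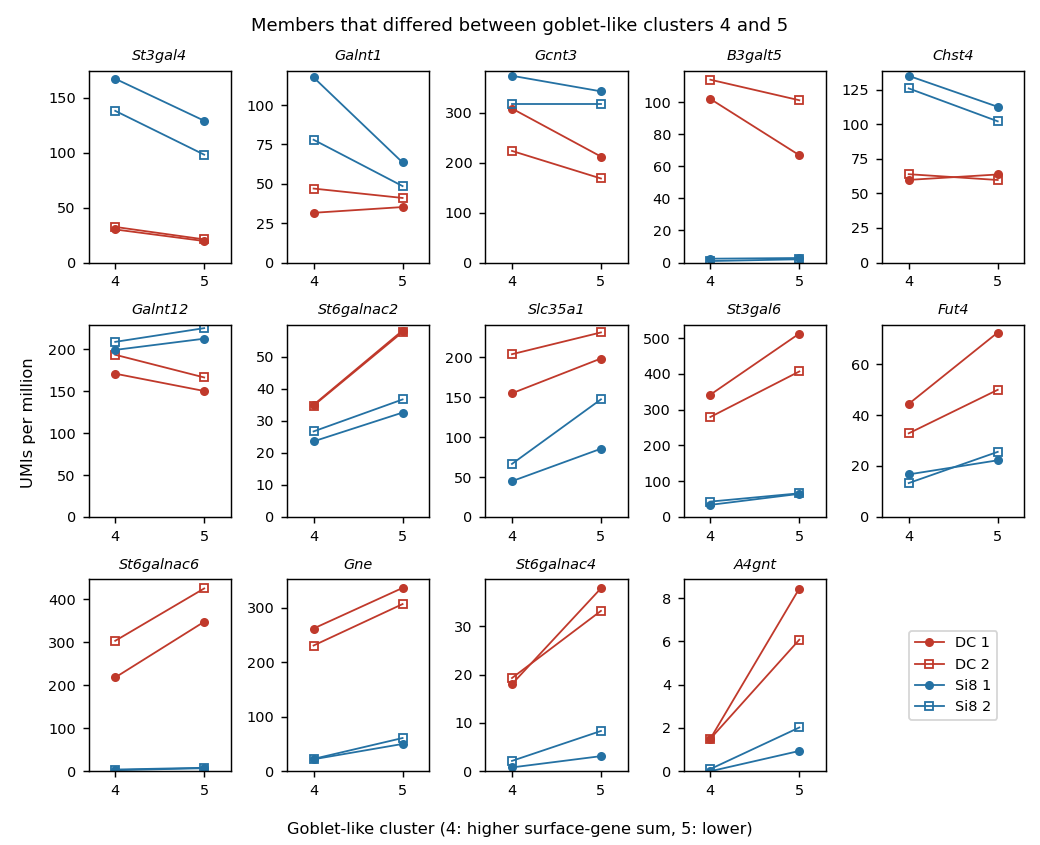
CPM in goblet-like clusters 4 and 5, with 1 line per library, for the 14 members called between them, ordered by fold change from St3gal4 (highest) to A4gnt (lowest). The lines of St6galnac2, St6galnac4, St6galnac6, St3gal6, Fut4, Slc35a1, Gne and A4gnt are lower in cluster 4 in all 4 libraries; Galnt12 was called on the TMM scale although its lines run both ways.

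Single clusters outside the matched classes held some members at their extremes and are given as a description, with no test. Nxpe2 averaged 179 CPM over the DC libraries in cluster 7, led by Cd74 and Clca3b, and 139 in the cycling cluster 3, but 1.8 in goblet-like cluster 4. A4gnt was at 14.8 in DC cluster 1 (goblet markers, led by Reg4) and at 8.95 in Si8 cluster 1 (Paneth markers), while cluster 4 held 1.5 in DC and 0.0511 in Si8. DC cluster 8 (goblet markers) was led by Slfn4 and Saa1 and had a median of 3956 UMIs per cell. Of the 10 DC clusters with enough cells, it held the lowest averages of St6galnac6 (132), Gne (80.3), St3gal6 (88.4) and B3gnt7 (63.3). Its average of Gcnt1 (133) was the highest of these clusters. St6galnac6 was highest in DC cluster 1, at 564.

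**Figure D5:**
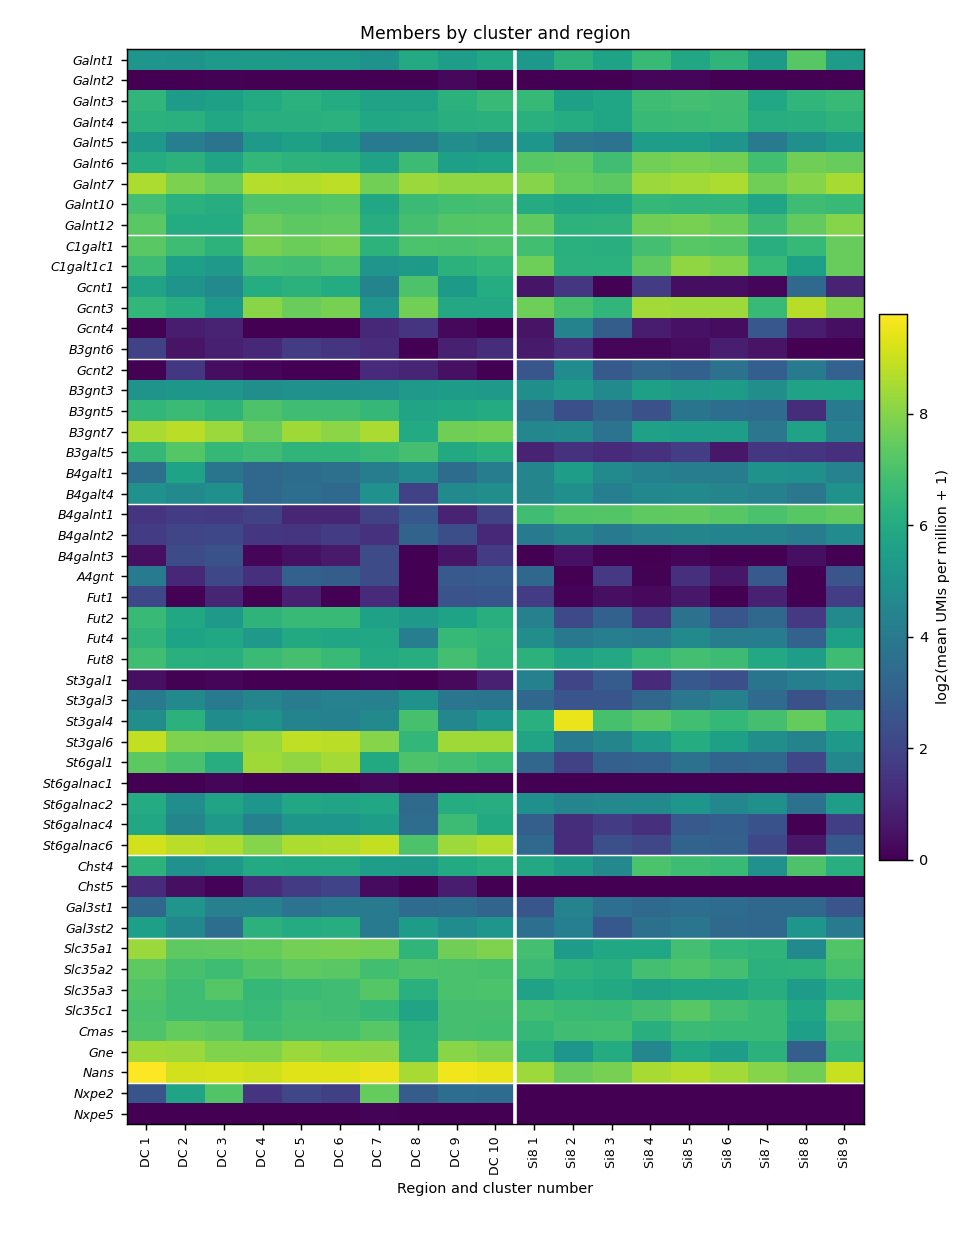
Mean level over both libraries of a region, as log2 of CPM plus 1, for the 52 members (rows, by step) in each cluster with enough cells (columns, DC left, Si8 right). The blocks of B3gnt7, B3galt5, St3gal6, St6gal1, St6galnac6 and Gne are mostly brighter in DC clusters than in Si8 clusters, and that of B4galnt1 the reverse.

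Other genes of the pathway, 85 symbols listed by function of which 81 were in the tables, gave the same comparison in goblet-like cells a wider frame. Of 47 tested, 27 were called (57.4%), 6 higher and 21 lower in DC, where 46.1% of all genes were called, 22.7% higher and 23.4% lower. Abo, the transferase of the A and B antigens, had 43.6 and 40.5 CPM in DC and no UMI in Si8, a difference of at least 340.0-fold (adjusted p = 2.06e-06). Fut9, a fucosyltransferase of Lewis x, had 3.88 and 4.18 in DC and no UMI in Si8, a difference of at least 33.3-fold (adjusted p = 0.000244). Nxpe4 had 1.82 and 3.64 in DC and none in Si8, at least 24.5-fold higher (adjusted p = 0.00149). Uap1l1 (log2 fold change -2.75 ± 0.15 (SE), adjusted p = 5.98e-06), Slc35b1 (-2.36 ± 0.14, adjusted p = 7.39e-06) and B4galt6 (-1.92 ± 0.17, adjusted p = 5.17e-05) were the 3 largest falls. Slc35b1, a nucleotide carrier of the endoplasmic reticulum, had 72.2 and 85.0 CPM in DC, against 285 and 262 in Si8.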

How the data were processed

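Droplet libraries (10x Genomics) were made from intestinal epithelial cells of RedMUC298trTg mice, labelled as goblet cells and sorted on mCherry. The authors deposited, for each library, a matrix of UMI counts for every gene in every barcode, made with Cell Ranger 2.1.1 on mm10, per the submitters' processing notes; the sources used here do not say how strand was counted. The members and lists were chosen with earlier results of these data known.

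A cell passed with 500 or more genes and no more than 20% of UMIs from mitochondrial genes (10522 cells). Scrublet's own threshold marked 18 (0.166%), so the highest scores were removed instead, at 0.8% per 1000 cells (279 cells). Cells were clustered with scanpy 1.11.5 (2000 variable genes, 30 components, 5 neighbours per library, Leiden resolution 1 with leidenalg 0.10.2), which gave 11 clusters. A cluster was named per region from at least 3 listed markers among its top 50 genes. The names are rebuilt here and not the authors'.

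UMI counts were summed per library and class and tested with edgeR 4.0.16 (R 4.3.3; TMM, filterByExpr with a minimum count of 10, quasi-likelihood F test, Benjamini-Hochberg adjustment over all genes tested, threshold 0.05). SE is the absolute log2 fold change divided by the square root of F. Class, interaction and state fits had library as a block. The scripts were tested on simulated data. Members are named if they averaged at least 100 CPM in goblet-like cells or were called with an absolute log2 fold change of at least 2, and in the other comparisons if among the 5 largest called changes in each direction; other examples were chosen after their values were seen. Alternatives were DESeq2 1.42.0, library totals alone, no count filter, leaving out each library, thinning to 2000 UMIs per cell, other cluster settings and the replicate block. In the labels, replicate numbers recur in both regions, and nothing there says that they mark a shared animal or day. Levels of single libraries and intervals cover counting error only.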

Additional observations from a re-analysis of the deposited data

Results flagged for a closer look

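The region difference of 8 of the members that the text names differed between goblet-like and absorptive-like cells by the interaction test (edgeR, goblet-like minus absorptive-like, log2). Positive values were found for B3gnt6, the core 3 synthase (3.71), Gal3st2, a galactose sulfotransferase (1.93), and St3gal4, a sialyltransferase (0.417). Negative values were found for Gcnt2, the I-branching enzyme (-3.71), St6galnac6 (-2.52) and St3gal3 (-2.06), both sialyltransferases, B3gnt7, a chain extender (-1.95), and B4galnt1, a GalNAc transferase (-1.38). Both comparisons came from the same 4 libraries, and absorptive-like cells held Muc2 at 35.2% to 53.5% of the goblet-like level, whose part in these values was not tested.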

How the results depend on the processing

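In goblet-like cells, leaving out 1 library gave 16 to 17 members higher and 17 to 19 lower in DC, library totals alone gave 26 higher, and all kept cells gave 12 lower. In absorptive-like cells, leaving out 1 library gave 15 to 20 higher and 8 to 12 lower, and thinning to 2000 UMIs gave 5 lower. The interaction had 1 to 3 positive and 19 to 28 negative members without 1 library, 1 and 16 with DESeq2, and 0 and 5 by edgeR after thinning (2 and 15 at an unadjusted p under 0.05). Goblet-like against absorptive-like cells gave 14 to 20 higher and 4 to 6 lower without 1 library. Between clusters 4 and 5, leaving out 1 library gave 3 to 5 higher and 5 to 7 lower, library totals alone 3 and 14, DESeq2 3 higher and thinning 2 higher; cluster 4 against cluster 6 gave 1 higher. Fut8 turned to 0.11 with library totals alone, and the interaction of B4galnt1, -1.6 to 0.26 without 1 library, turned positive without DC 2 and to 0.23 after thinning; the cause was not tested. Members keeping call and direction in every alternative that gave them an adjusted p numbered 22 of 36 and 20 of 30 for regional differences. They numbered 3 of 28 for the interaction, 17 of 30 for the classes and 4 of 14 for the state. An alternative that did not test a member was not counted against it. St3gal1 and Chst5 had 13 of 17 alternatives in goblet-like cells, and A4gnt had 5 of 9 for the state. With the replicate block 18 members were higher and 20 lower in goblet-like cells, and 21 and 14 in absorptive-like cells; same-numbered libraries had a correlation of deviations of 0.17 over 11288 genes, with only 2 pairs. At Leiden resolution 0.5, goblet-like cells formed 1 cluster, so the state comparison was not run there. The lowest members limit what can be read: 6 of 52 averaged under 1 CPM in goblet-like cells.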

Other observations

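Pathway genes outside the 52 were also compared in absorptive-like cells: of 44 tested, 7 were higher and 12 lower in DC, where 33.8% of all genes were called. Of 48 tested between classes, 19 were higher and 8 lower in goblet-like than in absorptive-like cells, where 29.9% of all genes were called.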
